A study of Rattus norvegicus with 12 samples.

Results

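Transcripts of the pre-mRNA splicing proteins were present in bulk RNA of purified red blood cell (RBC) samples of rats. After 20 days of cold storage, 13 of the 50 that could be tested were lower and 2 were higher than without storage. Of all tested genes, 21.1% were lower and 12.8% were higher. The members were chosen by name, as all genes whose symbol starts with Srsf and a digit, Hnrnp, Sf3a or Sf3b and a digit, Snrp, or U2af, a trailing copy number being ignored. This rule found 57 of the 29539 genes, and it used no measured value. They comprised 12 SR proteins, 18 hnRNPs, 24 snRNP proteins (those of the Snrp, Sf3a and Sf3b groups) and 3 U2AF proteins. Of these, 50 had enough counts to be tested, namely 10 SR proteins, all 18 hnRNPs, 19 snRNP proteins and all 3 U2AF proteins, among 8382 genes tested in all.

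The libraries came from wild-type male Wistar rats of 11 weeks. Whole blood was mixed with CPDA, an anticoagulant and preservative solution, and was kept at 4 °C for 10 days (10 d), for 20 days (20 d) or not at all (Cont). RBCs were then purified by 5 washes, and rRNA-depleted total RNA was sequenced, with 4 libraries per condition. The blood of each rat was divided among the conditions, but the labels do not give the rat behind each library, so p-values measure the spread between these libraries. As bulk RNA was measured, fewer cells of a type and less RNA per cell cannot be told apart.

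Splicing removes introns from pre-mRNA in the nucleus. The snRNPs are particles of small nuclear RNA and protein that form the spliceosome, in which Sm proteins make a ring around the RNA and the SF3a and SF3b proteins of the U2 particle hold the branch site, while U2AF marks the 3′ splice site. SR proteins bind exons and mostly promote the use of nearby splice sites, and hnRNPs coat the nascent transcript and often repress splice sites. Mammalian RBCs lose their nucleus at the end of maturation, so that the mRNAs they hold were made in nucleated precursors.

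Total counts per library ranged from 65735930 to 85996710, of which globin genes took 79.8% to 82.5%, and the members received 9944 to 15040 counts per library. Scaled to 1000000 counts per library, the members had 161 to 196 counts in Cont, 133 to 150 after 10 d and 134 to 148 after 20 d. At least 1 count was found for 51 to 53 of the 57 members in Cont, for 49 to 53 after 10 d and for 48 to 54 after 20 d. Libraries were scaled by TMM (trimmed mean of M-values), which sets the typical gene to no change, and levels of the same gene are given as CPM (counts per 1000000) on that scale. With the library size alone, the median of all tested genes shifted by -0.39 on the log2 scale at 20 d against Cont and by -0.36 at 10 d against Cont, so every change below is relative to the typical gene.

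Upstream sequence of 5 members is shown because their transcripts moved in different directions. The 100 bases before the RefSeq gene start (assembly GRCr8) are written 5′ to 3′ on the strand of the gene, with capitals for matches to the promoter motifs named after them. On the TMM scale the first 3 genes fell at 20 d against Cont and the last 2 rose. With the library size alone neither rise was called, with log2 fold changes of -0.15 for Hnrnpm and -0.03 for Hnrnpl.
Srsf7, chr6:20563952-20564051, plus strand: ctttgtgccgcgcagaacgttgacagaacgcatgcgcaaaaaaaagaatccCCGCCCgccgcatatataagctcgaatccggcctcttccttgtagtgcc
Hnrnpab, chr10:36363899-36363998, minus strand: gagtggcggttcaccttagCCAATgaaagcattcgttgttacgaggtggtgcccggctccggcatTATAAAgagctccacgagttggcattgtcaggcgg
Sf3a2, chr7:9566206-9566305, minus strand: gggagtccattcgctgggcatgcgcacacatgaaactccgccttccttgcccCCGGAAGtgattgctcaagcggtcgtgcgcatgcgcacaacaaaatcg
Hnrnpm, chr7:15178872-15178971, minus strand: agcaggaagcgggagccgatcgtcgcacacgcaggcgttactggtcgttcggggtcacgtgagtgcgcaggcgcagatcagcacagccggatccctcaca
Hnrnpl, chr1:93228301-93228400, plus strand: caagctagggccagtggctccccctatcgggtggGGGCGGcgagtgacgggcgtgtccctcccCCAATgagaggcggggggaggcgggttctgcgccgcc
The capitals mark a GC box in Srsf7, a CCAAT box and a TATA box in Hnrnpab, an ETS motif in Sf3a2, and a GC box and a CCAAT box in Hnrnpl, while the window of Hnrnpm held none of the motifs searched.

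Over all members, 51 of 56 symbols matched the RefSeq table, with 55 windows of 250 upstream bases, and each motif was searched on both strands. The GC box (GGGCGG or CCGCCC) was found in 31 member windows (56.4%) and in 30.5% of all 33469 windows. The CCAAT box (CCAAT or ATTGG) was found in 28 member windows (50.9%, against 34.0% of all), and the ETS motif (CCGGAAG or CTTCCGG) in 16 (29.1%, against 7.27%). The shares were closer for the TATA box (TATAAA or TTTATA), with 12.7% against 12.9%, for the GATA motif (AGATAA or TTATCT), with 9.09% against 10.3%, and for the cAMP response element (TGACGTCA), with 3.64% against 1.59%. Of the 13 windows of members that fell at 20 d, 12 held the GC box, 7 the CCAAT box, 7 the ETS motif, 2 the TATA box and none the GATA motif or the cAMP response element. Some of these short motifs may overlap in a window, and a match only describes the letters.

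Before any comparison of conditions, the levels per length were set in order by the deposited TPM (transcripts per 1000000), as shown in the plot of TPM in each library. Together the members summed to 122 TPM ± 10.8 in Cont (SD, n = 4), 96.8 ± 6.53 after 10 d and 89.4 ± 2.30 after 20 d. The hnRNPs took the largest part of the Cont sum with 77.6 TPM ± 4.85, followed by the snRNP proteins with 28.4 ± 5.16 and the SR proteins with 12.6 ± 1.36. On the TMM scale, by contrast, the sum of all members was 153.8 CPM ± 2.97 in Cont, 154.3 ± 9.29 after 10 d and 155.9 ± 3.15 after 20 d, so that the fall of the TPM sum did not appear on that scale.

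**Figure D1:**
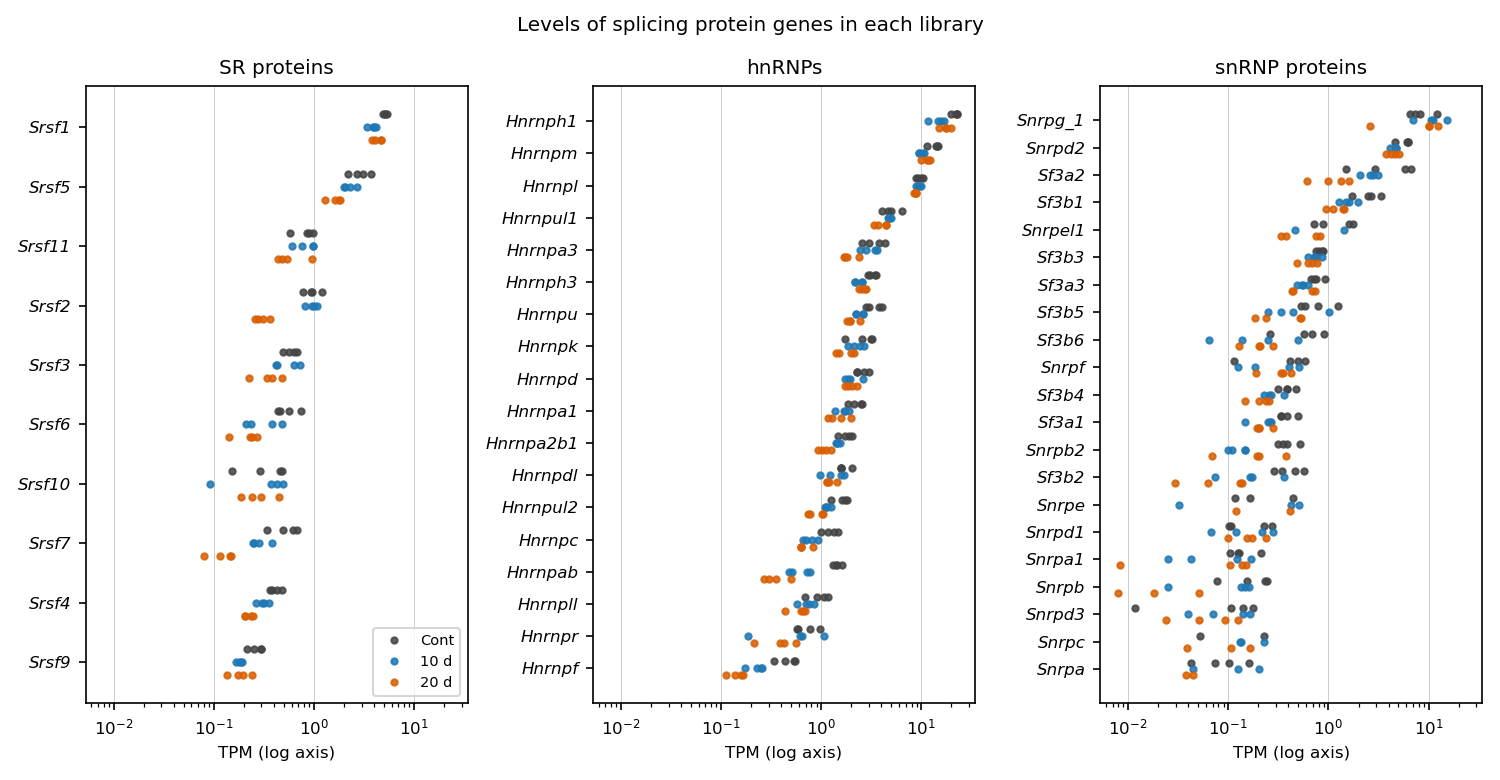
TPM of each member (log axis) in each of the 4 libraries of Cont, 10 d and 20 d, for SR proteins, hnRNPs and snRNP proteins in the order of their mean, with values of 0 and the members under a mean of 0.05 TPM left out. Hnrnph1, with 21.8 TPM in Cont, and Hnrnpm lie highest, Srsf1 leads the SR proteins, and Snrpg_1 and Snrpd2 lead the snRNP proteins.

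Hnrnph1, which binds runs of G, was the most abundant member, with 23.0, 22.6, 19.6 and 22.1 TPM in the Cont libraries, 17.0, 11.7, 14.7 and 15.8 after 10 d, and 19.8, 14.9, 17.8 and 17.9 after 20 d. Hnrnpm, which binds GU-rich RNA, followed with a mean of 13.6 TPM in Cont, 10.0 after 10 d and 11.3 after 20 d. Hnrnpl, which binds CA repeats, had 9.62 TPM ± 0.688 in Cont, and Snrpg_1 had 8.57 ± 2.55, so that these neighbours in the order did not differ beyond their spread. Snrpd2, a protein of the Sm ring, had 5.84 TPM ± 0.788 in Cont and Srsf1, the prototype SR protein, had 5.10 ± 0.195. The order of the members hardly changed with storage, as Spearman's rho of the mean TPM over the 57 members was 0.976 between Cont and 10 d and 0.963 between Cont and 20 d, given here as a description of means from the same genes.

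Levels within the particles were unequal. Of the 7 symbols that name the Sm ring, Snrpd2 and Snrpg, the latter through its copy Snrpg_1, stood above the rest. Snrpf had 0.402 TPM, Snrpe 0.181, Snrpd1 0.177, Snrpb 0.177 and Snrpd3 0.110 in Cont. Snrpg_1 is a short locus (mRatBN7.2 chr1:87982626-87983118), while the longer locus Snrpg_2 (chr4:118812252-118819826) had 4 counts in Cont and 0 in both stored conditions. The locus from which the Snrpg_1 reads came was not tested. The U1 proteins Snrpc and Snrpa had 0.0697 and 0.0954 TPM in Cont and were too low to be tested. Among the SF3 proteins, Sf3a2 and Sf3b1 were the most abundant, with 4.22 TPM ± 2.42 and 2.56 ± 0.656 in Cont. TPM divides by the annotated length, which was long for Srsf4 and Hnrnpf (7.45 and 5.03 times that of the median member), so that their TPM values are low for their counts. The handling of reads that match several places is not given in the sources used here, so the levels of genes with near-identical copies, such as Snrpg_1, Snrpel1 and Hnrnpa1, are uncertain.

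The 7 members below the filter on low counts were Srsf8, with 0 counts in all 12 libraries, Srsf12, with 7 counts in Cont, 1 after 10 d and 3 after 20 d, Snrpc, Snrpa, Snrpg_2, Snrpd2l and Snrpn. Snrpa had 18 counts in Cont, 18 after 10 d and 4 after 20 d, and Snrpc had 15, 25 and 16. Snrpg_2 had 4 counts in Cont and 0 in both stored conditions, where a count of 0 allows up to 3 counts. Snrpn, which is mainly known from neurons, had 0, 2 and 1 counts, and in a fit without the filter, which took in all but Srsf8, none of these members was called in any pair (lowest edgeR adjusted p = 0.312, 0 at an unadjusted p under 0.05), so that no difference was detectable for them at this depth.

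The comparison of 20 d with Cont asks which transcripts differ after the longest storage. By edgeR's quasi-likelihood F-test, with p-values adjusted over all tested genes (Benjamini-Hochberg), 15 of the 50 tested members were called at an adjusted p under 0.05, beside 33.9% of all tested genes. The 13 falls stand beside 21.1% of all genes that fell, and the 2 rises beside 12.8% that rose. The share of members called was thus near the background, while rises were few. The median log2 fold change (log2FC) was -0.19 over the members and -0.01 over all tested genes. By family, 4 of 10 SR proteins fell and none rose (median -0.28), 4 of 18 hnRNPs fell and 2 rose (-0.12), and 4 of 19 snRNP proteins fell and none rose (-0.33). At an unadjusted p under 0.05, 1 SR protein (Srsf1) and 0 snRNP proteins were higher, and DESeq2 called no rise in either family. Without a filter on low counts, 1 rise was called in each, Srsf1 and Snrpg_1. U2af2 was the only U2AF gene of 3 to fall. The families were not tested against each other.

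**Figure D2:**
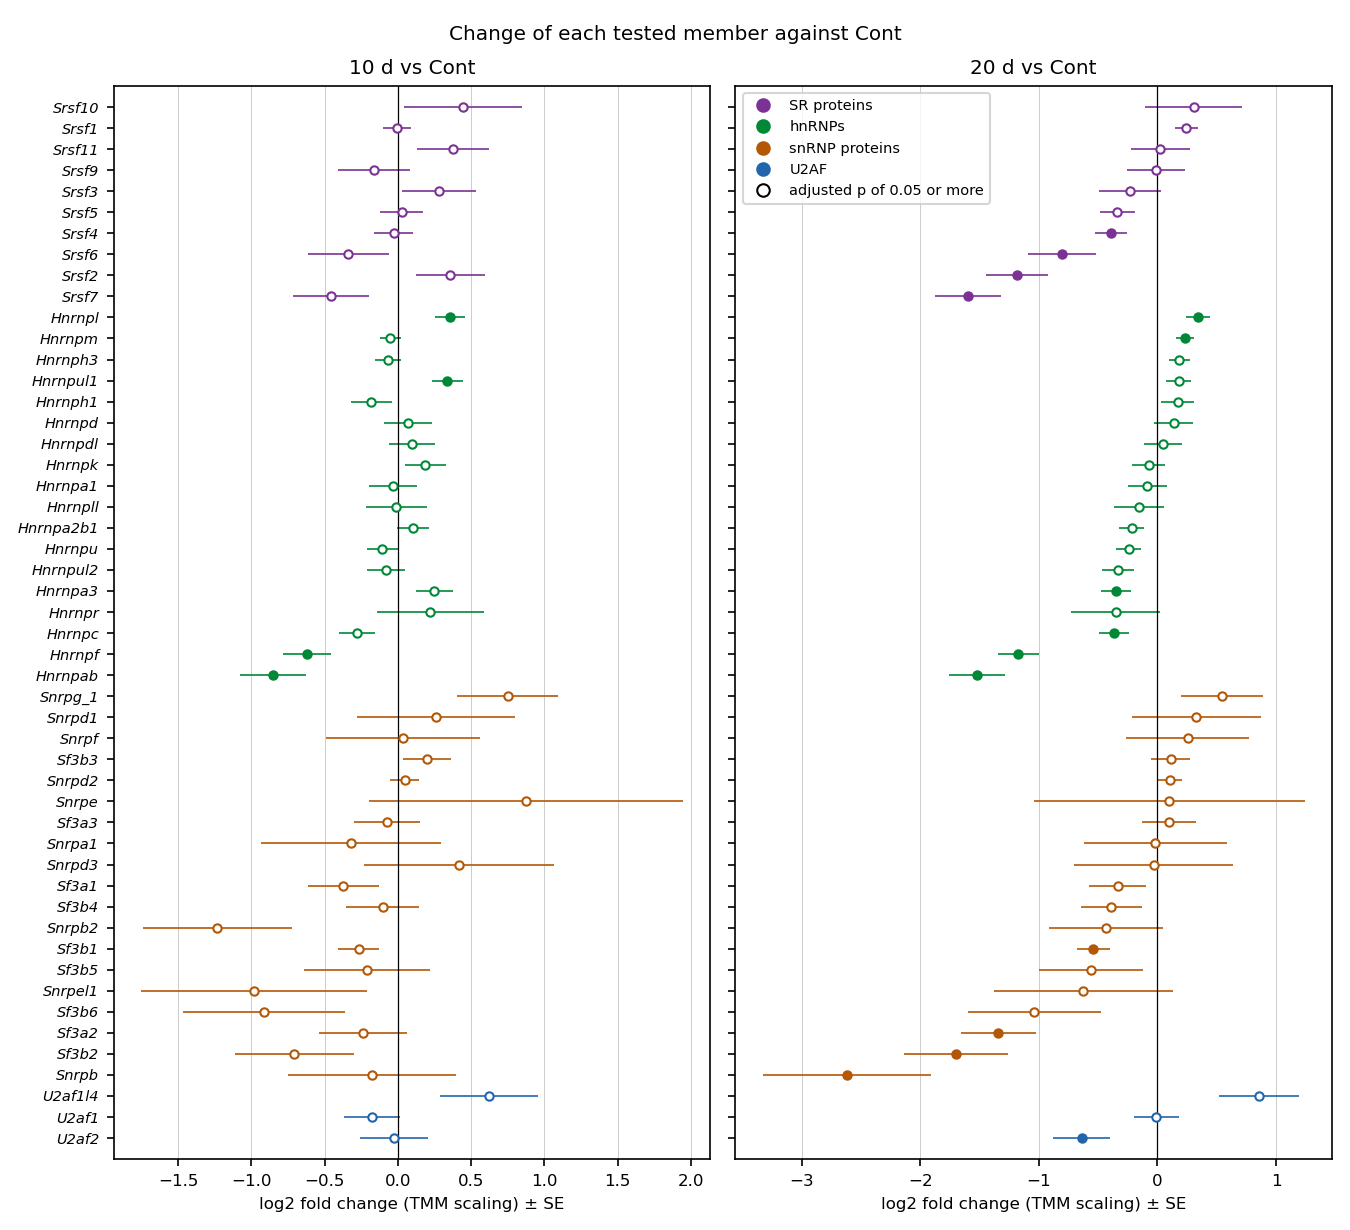
Log2 fold change ± SE of the 50 tested members at 10 d and at 20 d against Cont (TMM scaling, edgeR), coloured by family, with filled points for an adjusted p under 0.05. At 20 d, 13 filled points lie to the left of 0 and 2 to the right, and at 10 d 2 lie on each side.

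Srsf7, an SR protein with a zinc knuckle that also takes part in mRNA export, had the steepest fall of the SR proteins (mRatBN7.2 chr6:14811808-14818965, plus strand). Its level was 0.521, 0.851, 0.714 and 0.623 CPM in the Cont libraries, 0.454, 0.418, 0.455 and 0.648 after 10 d, and 0.150, 0.210, 0.264 and 0.269 after 20 d. All 20 d libraries lay below all others, and the Cont and 10 d libraries overlapped. The log2FC of Srsf7 at 20 d against Cont was -1.60 ± 0.28 (SE, edgeR adjusted p = 0.000244), a 3.02-fold lower level, and at 20 d against 10 d it was -1.14 ± 0.29 (edgeR adjusted p = 0.0115).

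Srsf2, which binds exonic enhancers and is mutated in human myeloid disease, fell at 20 d against both other conditions (chr10:102052314-102055338, minus strand). Its level was 0.612, 0.628, 0.445 and 0.419 CPM in Cont, 0.718, 0.572, 0.711 and 0.703 after 10 d, and 0.286, 0.195, 0.202 and 0.241 after 20 d. The 20 d libraries were again below every other library. The log2FC of Srsf2 was -1.18 ± 0.26 at 20 d against Cont (edgeR adjusted p = 0.00178) and -1.54 ± 0.26 at 20 d against 10 d (edgeR adjusted p = 0.000601), whereas at 10 d against Cont it was 0.36 ± 0.24 (edgeR adjusted p = 0.391).

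Srsf4 and Srsf6 are SR proteins with long RS domains, and both passed the test with smaller changes. Srsf4 had 2.53 to 3.53 CPM in Cont and 2.08 to 2.62 after 20 d, which overlap, with a log2FC of -0.39 ± 0.13 (edgeR adjusted p = 0.0305). Srsf6, named after its values were seen, had 0.638 to 0.995 CPM in Cont and 0.312 to 0.570 after 20 d, which do not overlap, with a log2FC of -0.80 ± 0.29 (edgeR adjusted p = 0.0369). Each call was lost in 6 of 12 fits that left out a library, with an adjusted p of up to 0.123 for Srsf4 (without Cont replicate 4) and of up to 0.122 for Srsf6 (without Cont replicate 3).

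The most abundant SR transcript, Srsf1, did not fall with them. It had 11.7, 10.0, 9.61 and 10.3 CPM in Cont, 11.2, 8.99, 10.5 and 10.7 after 10 d, and 13.8, 11.6, 13.04 and 11.0 after 20 d, so the 20 d libraries overlapped Cont at the upper end. Its log2FC at 20 d against Cont was 0.25 ± 0.10 (edgeR adjusted p = 0.0561), and it was -0.14 with the library size alone, while without a filter on low counts the rise was called (0.31, edgeR adjusted p = 0.0194). As a share of the SR protein TPM, Srsf1 took 40.8% ± 3.02 in Cont, 39.1% ± 1.29 after 10 d and 52.1% ± 2.64 after 20 d. Srsf5, the second in level, had 1.48, 1.70, 1.89 and 1.53 CPM in Cont and 1.46, 1.45, 1.26 and 1.05 after 20 d, which do not overlap, but its log2FC of -0.34 ± 0.15 did not pass (edgeR adjusted p = 0.0897) except under other settings such as the library size alone (edgeR adjusted p = 0.00336). The other SR proteins, Srsf3, Srsf9, Srsf10 and Srsf11 had log2FCs of -0.23, -0.01, 0.30 and 0.03, none of which passed.

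**Figure D3:**
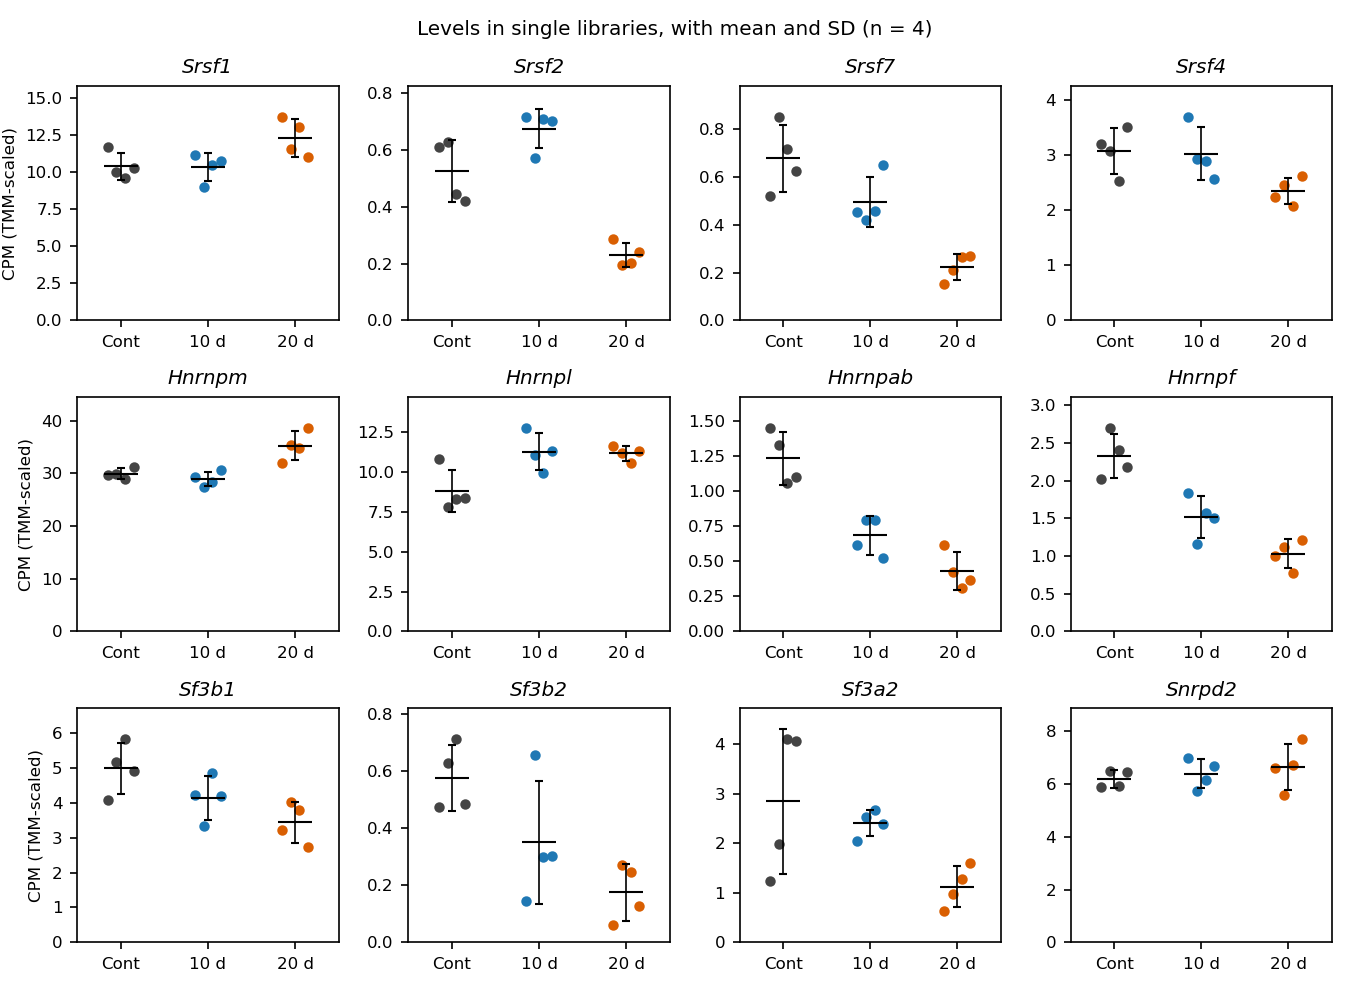
CPM on the TMM scale of 12 members in the 4 libraries of each condition, with the mean and SD as black bars and each axis starting at 0. The 20 d points of Srsf7, Srsf2, Hnrnpab, Hnrnpf, Sf3b1 and Sf3b2 lie below every Cont point, those of Hnrnpm lie above every Cont point, and those of Srsf1, Srsf4, Hnrnpl, Sf3a2 and Snrpd2 overlap Cont.

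Among the hnRNPs, Hnrnpab, an A/B-type protein that binds mRNA and single-stranded DNA, fell most (chr10:35857041-35863344, minus strand). Its level was 1.45, 1.33, 1.05 and 1.10 CPM in Cont, 0.615, 0.794, 0.796 and 0.524 after 10 d, and 0.616, 0.420, 0.310 and 0.368 after 20 d. Every stored library was below every Cont library, and the 10 d and 20 d libraries overlapped. The log2FC of Hnrnpab was -1.52 ± 0.24 at 20 d (edgeR adjusted p = 7.81e-05) and -0.85 ± 0.23 at 10 d (edgeR adjusted p = 0.0161), each against Cont.

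Hnrnpf, which like Hnrnph1 binds runs of G, fell over both intervals (chr4:151083062-151109038, plus strand). Its level was 2.03, 2.71, 2.40 and 2.18 CPM in Cont, 1.83, 1.16, 1.58 and 1.503 after 10 d, and 1.01, 1.13, 0.775 and 1.22 after 20 d. All stored libraries lay below Cont, and 10 d replicate 2 lay within the range of 20 d. The log2FC of Hnrnpf was -1.17 ± 0.17 at 20 d against Cont (edgeR adjusted p = 4.19e-05), -0.62 ± 0.17 at 10 d against Cont (edgeR adjusted p = 0.0170) and -0.55 ± 0.18 at 20 d against 10 d (edgeR adjusted p = 0.0390). The last of these calls was lost in 10 of 12 fits that left out a library, with an adjusted p of up to 0.1204 without 20 d replicate 3. Its relative Hnrnph1, in contrast, had a log2FC of 0.17 ± 0.14 at 20 d against Cont (edgeR adjusted p = 0.376), which was -0.20 with the library size alone.

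Hnrnpa3, an A/B-type protein of the hnRNP particle, had 6.99, 6.79, 9.04 and 8.79 CPM in Cont, 9.27, 7.44, 9.89 and 10.9 after 10 d, and 5.82, 5.88, 7.47 and 5.65 after 20 d. The 20 d libraries overlapped the others through replicate 3. Its log2FC was -0.60 ± 0.13 at 20 d against 10 d (edgeR adjusted p = 0.00453) and -0.35 ± 0.13 at 20 d against Cont (edgeR adjusted p = 0.0455). Hnrnpc, which binds runs of U and was named after its values were seen, had 4.03 to 4.93 CPM in Cont and 2.98 to 4.03 after 20 d, with a log2FC of -0.37 ± 0.12 (edgeR adjusted p = 0.0282). Of 12 fits that left out a library, the call at 20 d against Cont was kept in only 5 for Hnrnpa3 and in 7 for Hnrnpc. The adjusted p was up to 0.194 for Hnrnpa3 (without Cont replicate 3) and up to 0.132 for Hnrnpc (without Cont replicate 2).

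The 2 members that rose at 20 d against Cont were abundant hnRNPs. Hnrnpm (chr7:14438688-14476762, minus strand) had 29.7, 29.8, 28.9 and 31.3 CPM in Cont, 29.3, 27.4, 28.4 and 30.6 after 10 d, and 31.9, 35.4, 34.9 and 38.7 after 20 d. Its 20 d libraries lay above all others, though the fold was small, with log2FCs of 0.23 ± 0.07 against Cont (edgeR adjusted p = 0.0192) and 0.29 ± 0.07 against 10 d (edgeR adjusted p = 0.0132). Hnrnpl (chr1:84100879-84111553, plus strand) had 10.8, 7.78, 8.31 and 8.35 CPM in Cont, 12.8, 11.1, 9.95 and 11.3 after 10 d, and 11.6, 11.2, 10.5 and 11.3 after 20 d. Of its Cont libraries, replicate 1 lay within the range of the stored libraries. The log2FC of Hnrnpl was 0.34 ± 0.10 at 20 d (edgeR adjusted p = 0.0150) and 0.36 ± 0.10 at 10 d (edgeR adjusted p = 0.0259), each against Cont.

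Both rises depended on the scaling. With the library size alone, the log2FCs at 20 d against Cont were -0.15 for Hnrnpm and -0.03 for Hnrnpl, and neither was called. All 13 falls were still called with the library size alone, with 21 falls and no rise among the members. Of all 8382 tested genes, 2910 fell and 99 rose under this scaling. The call of Hnrnpm at 20 d against Cont was also lost without 20 d replicate 4 (edgeR adjusted p = 0.0672).

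**Figure D4:**
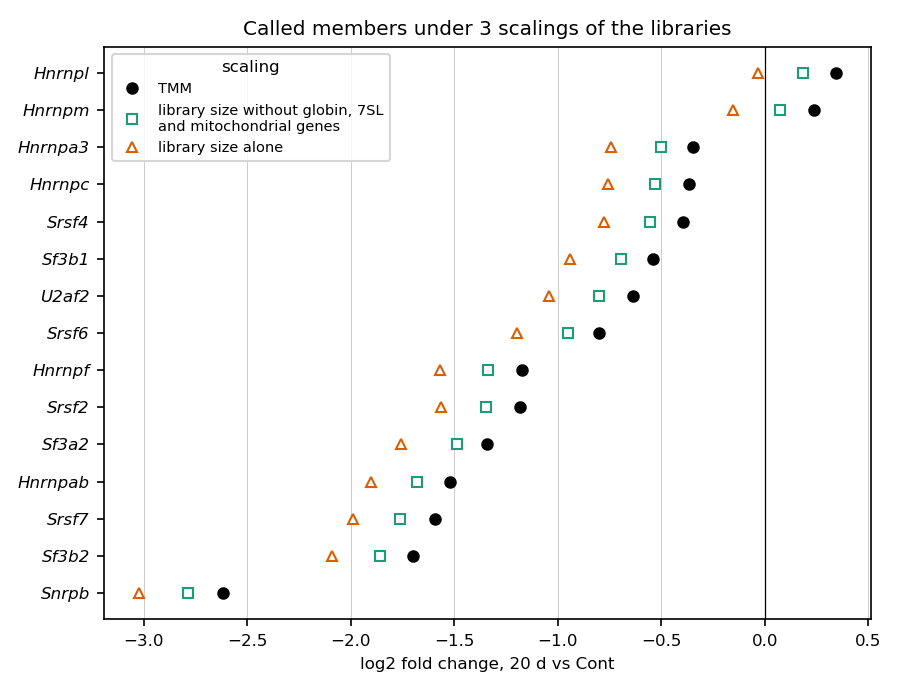
Log2 fold change at 20 d against Cont of the 15 called members under 3 scalings of the libraries: TMM, library size without globin, 7SL and mitochondrial genes, and library size alone. The 13 falls stay to the left of 0 under each scaling, whereas Hnrnpm and Hnrnpl move from 0.23 and 0.34 with TMM to -0.15 and -0.03 with library size alone.

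Of the snRNP proteins, 3 of the 9 tested Sf3a and Sf3b genes (median log2FC -0.54) and 1 of the 10 tested Snrp genes (median 0.04) fell at 20 d against Cont. Of all tested genes, 21.1% fell. These groups were not tested against each other, and most tested Snrp genes had few counts and a large SE. Sf3b1, the SF3b protein that holds the branch site and is often mutated in human myelodysplasia, had 4.07, 5.16, 5.83 and 4.90 CPM in Cont, 4.22, 3.32, 4.85 and 4.19 after 10 d, and 3.22, 4.00, 3.80 and 2.72 after 20 d. Its 20 d libraries were all below Cont, with 10 d overlapping both. The log2FC of Sf3b1 (chr9:56492403-56532300, minus strand) at 20 d against Cont was -0.54 ± 0.14 (edgeR adjusted p = 0.00628).

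Sf3b2, a partner of Sf3b1 that contacts RNA near the branch site, had 0.476, 0.628, 0.714 and 0.484 CPM in Cont, 0.146, 0.655, 0.299 and 0.303 after 10 d, and 0.0601, 0.270, 0.248 and 0.128 after 20 d. The groups of 20 d and Cont did not overlap, and 10 d replicate 2 stood at the level of Cont. The log2FC of Sf3b2 at 20 d against Cont was -1.70 ± 0.44 (edgeR adjusted p = 0.00582), on 210 counts in Cont and 47 after 20 d. Sf3a2, an SF3a protein needed to build the U2 particle, had 1.23, 1.98, 4.11 and 4.06 CPM in Cont, 2.05, 2.54, 2.67 and 2.39 after 10 d, and 0.631, 0.975, 1.27 and 1.60 after 20 d. Its Cont libraries were spread over a wide range, the lower ones being replicates 1 and 2, and they overlapped 20 d. The log2FC of Sf3a2 was -1.34 ± 0.32 at 20 d against Cont (edgeR adjusted p = 0.00314) and -1.10 ± 0.32 at 20 d against 10 d (edgeR adjusted p = 0.0261).

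Snrpb, which encodes the B protein of the Sm ring, had the largest fall of any tested member, on few counts (chr3:117370100-117379339, minus strand). It had 79 counts in Cont, 54 after 10 d and 9 after 20 d, which came to 0.113, 0.294, 0.258 and 0.194 CPM in Cont, 0.0440, 0.265, 0.228 and 0.221 after 10 d, and 0, 0.0900, 0.0310 and 0.0142 after 20 d. The 20 d libraries were below Cont and overlapped 10 d through 10 d replicate 1. The log2FC of Snrpb was -2.62 ± 0.71 at 20 d against Cont (edgeR adjusted p = 0.00805) and -2.44 ± 0.72 at 20 d against 10 d (edgeR adjusted p = 0.0285).

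The size of the Snrpb fall varied with the library left out. It was largest without 20 d replicate 2, with a log2FC of -3.70 against Cont and -3.53 against 10 d. It was smallest without 20 d replicate 1, with -2.21 against Cont and -2.04 against 10 d. The call against 10 d was lost in 6 of 12 fits that left out a library, with an adjusted p of up to 0.0819 without 10 d replicate 2.

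With TMM, the filter on low counts and no block by replicate number, the other Sm ring genes gave no call in any pair of conditions. Snrpd2 had 5.87, 6.49, 5.90 and 6.46 CPM in Cont and 6.58, 5.59, 6.70 and 7.71 after 20 d, with a log2FC of 0.10 (95% interval -0.09 to 0.30) that became -0.29 with the library size alone. Snrpg_1 had 1.89, 1.25, 1.28 and 2.40 CPM in Cont, 4.23, 1.80, 2.55 and 2.88 after 10 d, and 3.56, 2.77, 0.698 and 2.89 after 20 d, with a wide interval of its log2FC at 20 d (-0.13 to 1.22). Without the filter Snrpg_1 was called higher at 10 d (0.75, edgeR adjusted p = 5.08e-05) and at 20 d (0.62, edgeR adjusted p = 8.05e-04) against Cont. With the filter and the replicate number as a block, Snrpg_1 was called higher at 10 d against Cont (0.755, edgeR adjusted p = 0.0248). For Snrpd1, Snrpd3, Snrpe and Snrpf, with 16 to 48 counts per condition, the intervals at 20 d against Cont ran from -0.73 to 1.39, -1.35 to 1.28, -2.14 to 2.34 and -0.76 to 1.27, so that 2-fold changes either way in Snrpd3 and Snrpe were not detectable at this depth. Snrpb2, a U2 protein, did not overlap between Cont (0.117 to 0.213 CPM) and 10 d (0.0557 to 0.0879), but its log2FC of -1.23 ± 0.51 did not pass (edgeR adjusted p = 0.130) except with the library size alone (-1.58, edgeR adjusted p = 0.0320) and without globin, 7SL and mitochondrial genes (-1.54, edgeR adjusted p = 0.0418).

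The U2AF partners differed in their values. U2af2, which binds the polypyrimidine tract, had 0.600, 0.962, 0.796 and 0.838 CPM in Cont, 0.615, 0.850, 0.853 and 0.827 after 10 d, and 0.616, 0.555, 0.574 and 0.312 after 20 d, with a log2FC of -0.64 ± 0.24 at 20 d against Cont (edgeR adjusted p = 0.0482). The 20 d libraries overlapped Cont through Cont replicate 1, and the call was lost in 9 of 12 fits that left out a library, with an adjusted p of up to 0.160 without Cont replicate 2. U2af1, which reads the AG at the 3′ splice site, had a log2FC of -0.01 (95% interval -0.38 to 0.36). U2af1l4, which in mouse can take the place of U2af1, had 0.419, 0.274, 0.492 and 0.344 CPM in Cont and 0.301, 1.08, 0.791 and 0.595 after 20 d, with a log2FC of 0.86 ± 0.33 that did not pass (edgeR adjusted p = 0.0563), though DESeq2 called it higher (adjusted p = 0.0419).

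At 10 d against Cont, 4 of the 50 tested members were called, beside 13.5% of all tested genes, and all were hnRNPs. The 2 rises stand beside 7.87% of all genes that rose and the 2 falls beside 5.67% that fell. Besides the falls of Hnrnpab and Hnrnpf and the rise of Hnrnpl given above, Hnrnpul1, a protein of the U-like group named after its values were seen, rose from 7.23, 6.77, 8.43 and 7.41 CPM in Cont to 10.0, 9.09, 9.17 and 9.39 after 10 d, without overlap. Its log2FC was 0.34 ± 0.10 (edgeR adjusted p = 0.0385), and it was -0.03 with the library size alone. None of the 4 calls was kept in every fit that left out a library, and without Cont replicate 2 no member was called by edgeR, with 4 at an unadjusted p under 0.05. With the library size alone, 14 members were called at 10 d, all lower. Under this scaling 1899 of all 8382 tested genes were called lower and 98 higher. With TMM, the filter on low counts and no block by replicate number, edgeR's quasi-likelihood test called no SR protein and no snRNP protein at 10 d. At an unadjusted p under 0.05 that fit gave 0 SR proteins and 2 snRNP proteins, and DESeq2 called none of either family. With the replicate number as a block, 1 snRNP protein (Snrpg_1) was called higher. When scaled by the library size alone, 3 SR proteins and 3 snRNP proteins were called lower, and 2 of each without globin, 7SL and mitochondrial genes in the library size. With limma on log2 TPM, 2 SR proteins and 7 snRNP proteins were called lower. The median log2FC at 10 d was 0.01 for SR proteins, -0.02 for hnRNPs and -0.18 for snRNP proteins, beside -8.19e-04 for all tested genes. Srsf11 had 0.613 to 1.07 CPM in Cont and 0.894 to 1.34 after 10 d, with a log2FC of 0.38 ± 0.24 that did not pass (edgeR adjusted p = 0.381).

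At 20 d against 10 d, 7 of the 50 tested members were called, beside 15.9% of all tested genes, with 6 falls (12.6% of all genes fell) and 1 rise (3.33% rose). The falls were in Srsf2, Srsf7, Snrpb, Sf3a2, Hnrnpa3 and Hnrnpf, and the rise in Hnrnpm. With the library size alone, Srsf2, Srsf7, Snrpb and Hnrnpa3 were called, while Sf3a2 (edgeR adjusted p = 0.0577), Hnrnpf (edgeR adjusted p = 0.0585) and Hnrnpm (edgeR adjusted p = 0.0990) were not. The call of Sf3a2 was also lost in 4 of 12 fits that left out a library, with an adjusted p of up to 0.0787 without 20 d replicate 1. All 7 were also among the 15 called at 20 d against Cont, and both comparisons use the same 20 d libraries. Over all pairs, 16 members were called at least once. In the test of any difference among the 3 conditions at an adjusted p under 0.0001, no member was called by edgeR's quasi-likelihood test, beside 6.13% of all tested genes. At an unadjusted p under 0.05 that test gave 20 members. At the adjusted threshold of 0.0001, DESeq2 called 5 members, beside 1306 of all 8382 tested genes. The likelihood ratio test of edgeR called 4 members, beside 1293 of all 8382. With limma on log2 TPM, 2 members were called. The share of 6.13% belongs to the quasi-likelihood test only and is not the background of these other fits.

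Without a model, the CPM ranges of 20 d and Cont did not overlap for 11 of the 50 tested members, 10 lower and 1 higher, beside 31.4% of all tested genes (20% lower and 11.4% higher). The ranges of 10 d and Cont did not overlap for 4 members, beside 17.8% of all tested genes, with 1 higher (9.63% of all) and 3 lower (8.17%). Those of 20 d and 10 d did not overlap for 6 members, beside 19.7%, with 1 higher (6.25%) and 5 lower (13.5%). In each comparison the share of members was below that of all tested genes.

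With TMM, 10 of the 13 falls at 20 d were in transcripts with a mean below 1 TPM over the 12 libraries. This mean takes in the 20 d libraries, so that a fall itself lowers it. Hnrnpab and Hnrnpc, with 1.45 and 1.24 TPM in Cont, came under 1 TPM only in this mean (0.809 and 0.900). Of the 29 tested members with a mean below 1 TPM, 10 fell and none rose at 20 d against Cont by edgeR or DESeq2 (0 higher at an unadjusted p under 0.05), and of the 21 with at least 1 TPM, 3 fell and 2 rose. The 13 members that fell had a median of 0.551 TPM in Cont (0.177 to 4.22), the 35 that were not called had 0.898, and the 2 that rose had 9.62 and 13.6. The split by level depended on the scaling, as 12 of 29 and 9 of 21 fell with the library size alone, and 10 of 29 and 7 of 21 without globin, 7SL and mitochondrial genes in the library size. The groups by level were not tested against each other, and the SE is larger at low counts.

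**Figure D5:**
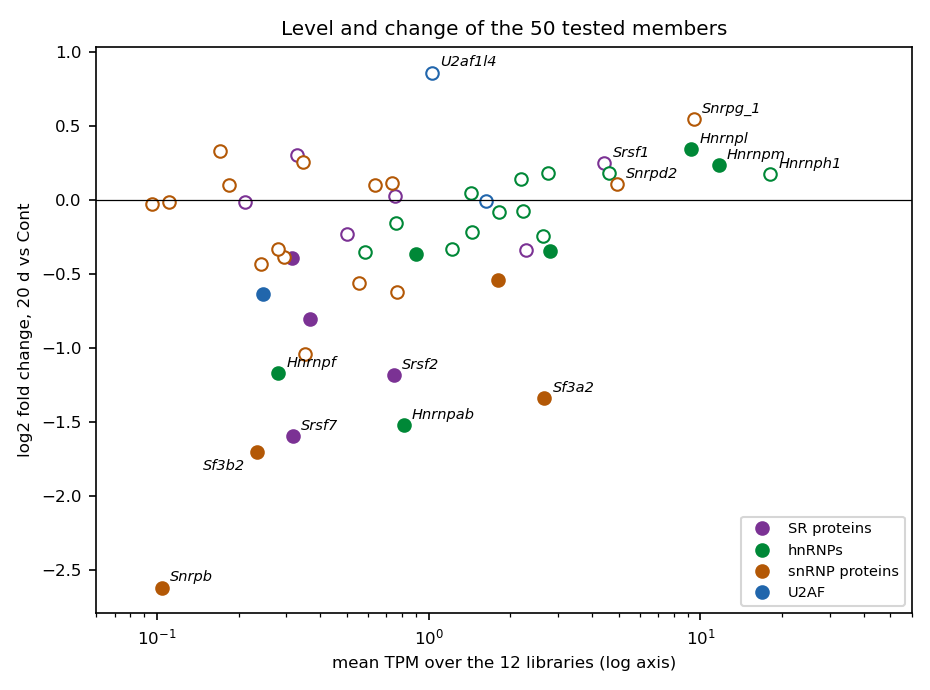
Log2 fold change at 20 d against Cont (TMM scaling) of the 50 tested members against their mean TPM over the 12 libraries (log axis), coloured by family, with filled points for an adjusted p under 0.05. The 4 members above 5 TPM, Hnrnph1, Hnrnpm, Hnrnpl and Snrpg_1, lie above 0, and 10 of the 13 filled points below 0 lie under 1 TPM.

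Other genes of the splicing machinery were taken from 4 lists of 113 listed genes, of which 108 were found and 100 tested. At 20 d against Cont 9 rose and 10 fell (19%), at 10 d against Cont 6 rose and 2 fell (8%), and at 20 d against 10 d 2 rose and 5 fell (7%), beside the same background shares as for the members. With the library size alone, 1 rose and 39 fell at 20 d against Cont, beside 99 and 2910 of all 8382 tested genes. In the core snRNP and tri-snRNP list, 5 of 29 fell at 20 d against Cont and none rose by edgeR or DESeq2 (2 higher at an unadjusted p under 0.05 in each), and among the falls were Snrnp200, the helicase that unwinds U4 from U6, with a log2FC of -0.85 ± 0.18 (edgeR adjusted p = 0.00159), and Snrnp70, a U1 protein, with -0.80 ± 0.21 (edgeR adjusted p = 0.00718).

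In the list of catalytic and step factors, 4 of 28 rose and 2 fell at 20 d against Cont. Bcas2, a member of the Prp19 complex, rose from 136 to 173 CPM in Cont to 225 to 251 after 10 d and 230 to 275 after 20 d, without overlap of the stored libraries with Cont, with a log2FC of 0.73 ± 0.08 at 20 d (edgeR adjusted p = 3.47e-06), and its mean of 355 TPM in Cont was above that of any member. Srrm2, a scaffold of nuclear speckles, had a log2FC of -0.84 ± 0.15 (edgeR adjusted p = 0.000317). With TMM and the filter on low counts, edgeR called none of the 8 tested kinases that phosphorylate SR proteins in any pair. At an unadjusted p under 0.05 that fit gave 0 at 20 d against Cont and 1 in each other pair. With the library size alone, edgeR called 6 lower at 20 d against Cont and 5 lower at 10 d against Cont, beside 2910 and 1899 of all 8382 tested genes. DESeq2 called 1 at 20 d against 10 d, and limma on log2 TPM called 6 lower at 20 d against Cont. In the list of SR-like and other regulators, 5 of 36 rose and 3 fell, with the largest fall in Celf2, a regulator of alternative splicing (-2.50 ± 0.30, edgeR adjusted p = 5.37e-06), and a rise in Mbnl2, a muscleblind protein (0.41 ± 0.10, edgeR adjusted p = 0.00424). None of these regulators was called higher and 16 were called lower with the library size alone, where Mbnl2 had a log2FC of 0.03 (edgeR adjusted p = 0.861), whereas Bcas2 was still called higher (0.34, edgeR adjusted p = 0.0102).

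Markers of other blood cells moved with storage in the same libraries. All 10 tested neutrophil markers fell at 20 d against Cont, with a summed level of 113 to 214 TPM in Cont, 19.0 to 64.4 after 10 d and 3.96 to 8.10 after 20 d, and Lcn2 was at 0 after 20 d. Both tested monocyte markers fell (41.9 to 91.9 TPM over the list in Cont, 3.28 to 18.3 after 10 d, 1.17 to 2.66 after 20 d), and Ms4a7, which was listed with them, was at 0 in all 12 libraries. All 10 tested B cell markers fell at 20 d (4.59 to 7.38, 5.52 to 7.05 and 0.0764 to 0.442 TPM, Pou2af1 at 0 after 20 d).

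All 8 tested T cell markers fell at 20 d (3.93 to 5.34, 0.575 to 0.836 and 0.0515 to 0.146 TPM, Cd3d, Cd2 and Cd5 at 0 after 20 d), and so did 7 of 8 markers shared by leukocytes (177 to 327, 183 to 232 and 148 to 167 TPM). Of 9 tested platelet markers, 7 rose at 10 d and 1 fell at 20 d against Cont (1.12 to 2.30, 5.07 to 6.86 and 1.04 to 1.25 TPM). Of 14 tested red cell markers, 10 rose and 1 fell at 20 d on the TMM scale, and 2 rose and 3 fell with the library size alone. The summed red cell list was at 282099 to 338232 TPM in Cont, 276457 to 315717 after 10 d and 249467 to 272631 after 20 d, above every other list in each library. The part of these cells in the levels and in the changes of the splicing protein transcripts was not tested.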

How the data were processed

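RNA of purified rat RBCs was measured in 12 libraries, 4 per storage condition. The authors mapped paired reads of 36 bases in CLC Genomics Workbench 22.0 to mRatBN7.2 (annotation release 105) and deposited raw counts per gene, as well as TPM values scaled to 1000000 per library. In the deposited file, 24 further per-sample columns (RPKM and CPM) and the 24 columns of the authors' own comparisons (fold changes and p-values) were not used.

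The tests on the counts used edgeR 4.0.16 (R 4.3.3). Genes were filtered by filterByExpr, libraries were scaled by TMM, and pairs of conditions were compared by the quasi-likelihood F-test with 1 shared estimate of the spread and Benjamini-Hochberg adjustment over all tested genes. Levels between genes were compared by TPM. Alternatives used DESeq2 1.42.0, limma 3.58.1 on log2(TPM + 0.1), other scalings, filters and tests, the replicate number as a block, and each library left out in turn. The fits were tested on simulated data. Depth ranged from 65735930 to 85996710 counts, and intervals cover these libraries only.

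Named members were, in each family, the 3 with the smallest adjusted p per pair, the 2 with the highest TPM, and genes known from human blood disease with both U2AF partners, 22 in all, plus 2 genes per list of other splicing genes. Members and lists were chosen with earlier results of these data known. Of the lists, genes without a matching symbol were not analysed here.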

Additional observations from a re-analysis of the deposited data

Results flagged for a closer look

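In 66 groups of 4 libraries, 22 named members in 3 conditions, 5 had a library far from the other 3 by Dixon's test at the 95% level, where chance flags about 1 in 20 groups. Hnrnpa3 had 7.47 CPM in 20 d replicate 3, above 5.65 to 5.88 in the others. Srsf11 had 1.41 CPM in 20 d replicate 2, above 0.666 to 0.775 in the others. In 10 d, Srsf2 was low in replicate 2 (0.572 CPM, against 0.703 to 0.718), Srsf7 was high in replicate 4 (0.648 CPM, against 0.418 to 0.455) and U2af2 was low in replicate 1 (0.615 CPM, against 0.827 to 0.853). The flags of Srsf11 and Srsf2 share replicate number 2, and the others have different numbers. The fall of Hnrnpa3 and of Srsf7 at 20 d against 10 d was called with each library left out in turn.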

How the results depend on the processing

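The count of called members at 20 d against Cont (15) was 11 to 21 under all alternatives except limma on log2(TPM + 0.1), which called 32, all lower. At 10 d against Cont (4) it was 14 with the library size alone, 11 with the library size without globin, 7SL and mitochondrial genes, and 18 with limma on log2(TPM + 0.1), all lower. At 20 d against 10 d (7) it was 4 with the library size alone, 13 with the replicate number as a block and 4 with limma on log2(TPM + 0.1). Among the 3 conditions (0) it was 2 with the library size alone, 2 without globin, 7SL and mitochondrial genes, 5 with DESeq2, 4 with the likelihood ratio test, 4 without a filter on low counts, 3 with the replicate block and 2 with limma on log2(TPM + 0.1).

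With each library left out in turn, the counts ranged from 11 to 15 at 20 d against Cont, from 0 to 5 at 10 d against Cont, from 4 to 9 at 20 d against 10 d (4 without 10 d replicate 3) and were 0 in every case among the 3 conditions. The genes called in these fits ranged, in the same order, from 2543 to 3250, 743 to 1320, 917 to 1627 and 252 to 606. At 20 d against Cont, 9 of 15 calls were kept in every such fit, namely Hnrnpab, Hnrnpf, Sf3a2, Sf3b1, Sf3b2, Snrpb, Srsf2, Srsf7 and Hnrnpl. The direction was reversed for Hnrnpl at 20 d against Cont with the library size alone (-0.035) and with limma on log2(TPM + 0.1) (-0.14), for Hnrnpl at 10 d with the latter (-0.027), and for Hnrnpm at 20 d against Cont with the library size alone (-0.15) and with limma (-0.26). Hnrnpul1 at 10 d also turned with the library size alone (-0.026). The cause was not tested. The study describes its samples as paired, but the labels do not tie a replicate number to a rat. Same-numbered libraries deviated together with correlations of 0.0167 to 0.214, all positive but only 5 of 12 over 0.1. Of 12 libraries, 9 correlated best with their own number, a hint from the data that equal numbers may share a rat. The replicate block added Srsf1 (higher) and Hnrnpul2 at 20 d against Cont, Snrpg_1 (higher) and Hnrnpc at 10 d against Cont, and Srsf1, Hnrnph1 and Hnrnph3 (higher), Srsf4, Hnrnpa2b1 and Hnrnpab at 20 d against 10 d.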
